A study of Mus musculus with 10 samples.

Results

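The 3 genes 2610035D17Rik, Prkag2 and Josd1 were described for H3K4me3 in mouse oocytes, window by window, because each holds a region with a large loss of the mark after deletion of Setd1b. The genome had been divided into non-overlapping windows of 5 kb, and the members were all windows that the deposited table assigns to one of these genes. These were 85 of 544879 windows, with 33 in 2610035D17Rik, 49 in Prkag2 and 3 in Josd1, and 3 of the 24678 genes named in the table. A further 5 windows on each side of each gene, 30 in all, were described as flanks.

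Germinal vesicle (GV) oocytes, which are arrested before the meiotic divisions, were isolated from 21-day-old C57BL6 females, and H3K4me3 was profiled by a native ChIP-seq protocol for small cell numbers (ULI-nChIP-seq) on pools of about 200 oocytes. Setd1b cKO mice were Setd1b floxed/floxed and Gdf9-Cre positive (3 H3K4me3 libraries and 2 inputs), and WT mice were Setd1b floxed/floxed and Gdf9-Cre negative (3 H3K4me3 libraries and 2 inputs). The Gdf9 promoter drives Cre in oocytes, from early folliculogenesis on by the paper's methods, so the ovaries' somatic cells keep the gene in both groups. Each library is a pool of oocytes, so differences between single oocytes are averaged, and fewer marked alleles cannot be told apart from less of the mark on each allele. The libraries held between 10856015 and 32775874 reads in windows for H3K4me3 and between 20756128 and 26566505 for input.

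H3K4me3, trimethylation of lysine 4 on histone H3, marks active promoters and CpG islands in most cells. In oocytes it also spreads over broad domains of unmethylated chromatin away from promoters. SETD1B is the catalytic subunit of one of the COMPASS family of H3K4 methyltransferases, and its partner CXXC1 binds unmethylated CpG. Prkag2 encodes the gamma 2 regulatory subunit of AMP-activated protein kinase (AMPK), an energy sensor in which the gamma subunit binds adenine nucleotides. Josd1 encodes a deubiquitinase of the Josephin family, named after the catalytic domain it shares with ataxin 3. 2610035D17Rik is annotated as a long intergenic non-coding RNA (lincRNA).

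All 3 genes lie on the reverse strand of GRCm38. 2610035D17Rik spans chr11:113043895-113201838, Prkag2 spans chr5:24862744-25100642 and Josd1 spans chr15:79674251-79687919. In Prkag2 the annotation holds a long transcript that starts at 25100642, a transcript that starts at 24995753, and a group of 5 starts in 1 window around 24908469, here called the short start. The mark is often read against CpG content, so the bases before 4 of the annotated starts are shown, as RefSeq gives them for GRCm38.p6. Each is taken from the 250 bases upstream of a RefSeq start, written 5′ to 3′ on the reverse strand, with CG dinucleotides in capitals. The RefSeq start of Josd1 lies 47 bases inside the GENCODE gene, and these bases, which are annotated as exon, are not shown. The stretch before the short Prkag2 start lies inside the intron of 1 transcript that starts at 24908977.
2610035D17Rik start, chr11:113201839-113202088: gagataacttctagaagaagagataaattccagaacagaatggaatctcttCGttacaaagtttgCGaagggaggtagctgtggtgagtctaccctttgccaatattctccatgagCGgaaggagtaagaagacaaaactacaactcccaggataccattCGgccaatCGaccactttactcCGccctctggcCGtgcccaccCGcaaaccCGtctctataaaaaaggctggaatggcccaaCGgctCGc
Josd1 start, chr15:79687920-79688122: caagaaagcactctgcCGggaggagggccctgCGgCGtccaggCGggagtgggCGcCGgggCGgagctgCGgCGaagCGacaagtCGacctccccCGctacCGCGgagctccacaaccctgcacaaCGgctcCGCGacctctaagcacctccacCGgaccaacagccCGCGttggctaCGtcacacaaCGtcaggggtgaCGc
Prkag2 short start, chr5:24908510-24908759: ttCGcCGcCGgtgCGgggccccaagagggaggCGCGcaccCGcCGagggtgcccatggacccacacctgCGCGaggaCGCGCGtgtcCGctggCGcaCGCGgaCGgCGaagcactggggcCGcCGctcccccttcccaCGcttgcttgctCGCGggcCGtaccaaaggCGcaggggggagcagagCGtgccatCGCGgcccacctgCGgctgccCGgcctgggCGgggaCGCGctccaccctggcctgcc
Prkag2 long start, chr5:25100643-25100892: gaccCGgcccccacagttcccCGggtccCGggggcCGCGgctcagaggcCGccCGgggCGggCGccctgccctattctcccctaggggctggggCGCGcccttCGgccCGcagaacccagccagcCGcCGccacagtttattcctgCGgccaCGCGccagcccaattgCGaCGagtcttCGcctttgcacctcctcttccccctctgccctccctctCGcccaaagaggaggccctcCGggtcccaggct
The table held promoters for all 3 genes, 5 in number. Counted over the full 250 bases, the 2610035D17Rik promoter had 11 CG dinucleotides, and 35.6% of the 32851 promoters in the table had at least as many. The Josd1 promoter had 31 (at least as many in 5.19%). The short Prkag2 promoter had 34 (at least as many in 3.53%) and the long Prkag2 promoter had 23 (at least as many in 13.3%). The Prkag2 promoter not shown had 4 (at least as many in 62.2%). The windows of the Josd1 and 2610035D17Rik starts had less H3K4me3 in the cKO, while those of the short and the long Prkag2 start did not. The CG count of the Josd1 promoter lay between those of the short and the long Prkag2 promoter.

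The window with the largest loss did not contain the 5′ end of its gene in any of the 3 genes. The most CpG-dense run of 300 bases outside annotated exons in each of these windows is shown in the same way, since these windows carry the losses described in detail.
2610035D17Rik intron, chr11:113198649-113198948: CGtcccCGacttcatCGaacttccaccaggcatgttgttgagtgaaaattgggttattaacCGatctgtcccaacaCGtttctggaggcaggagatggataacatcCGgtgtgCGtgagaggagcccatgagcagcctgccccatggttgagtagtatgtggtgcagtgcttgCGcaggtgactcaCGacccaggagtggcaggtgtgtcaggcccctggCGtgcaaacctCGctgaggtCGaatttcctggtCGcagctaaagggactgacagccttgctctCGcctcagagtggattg
Prkag2 intron, chr5:24887320-24887619: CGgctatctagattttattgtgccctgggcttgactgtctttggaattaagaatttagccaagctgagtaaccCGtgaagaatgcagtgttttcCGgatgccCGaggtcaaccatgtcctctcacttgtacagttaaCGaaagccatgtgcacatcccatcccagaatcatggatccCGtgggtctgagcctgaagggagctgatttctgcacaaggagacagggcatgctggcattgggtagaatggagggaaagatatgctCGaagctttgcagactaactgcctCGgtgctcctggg
Josd1 intron, chr15:79684043-79684342: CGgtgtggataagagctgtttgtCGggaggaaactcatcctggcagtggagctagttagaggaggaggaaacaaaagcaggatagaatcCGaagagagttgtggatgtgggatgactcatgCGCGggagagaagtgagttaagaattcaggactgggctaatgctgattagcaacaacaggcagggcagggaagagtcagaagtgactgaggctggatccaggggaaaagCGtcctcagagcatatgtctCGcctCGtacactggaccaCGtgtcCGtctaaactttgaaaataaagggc
These runs held 14 CG dinucleotides in 2610035D17Rik, 8 in Prkag2 and 10 in Josd1. Over the whole 5 kb, the windows held 108, 71 and 61, and the medians over all windows of the same genes were 72, 63 and 61. All of these were above the median of 35 over the 529282 windows with known sequence. The 2473 windows called as loss over the genome had a median of 33.

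The windows were chosen on the difference between cKO and WT, so the H3K4me3 values of the 3 genes are given as a description and carry no test. The deposited value is named enrichment-normalized RPKM. It is reads scaled to library size and then adjusted linearly in each library to common percentiles. Its median over all windows was 1.46 in WT and 1.54 in cKO. A window was called as loss or gain when its adjusted p in limma, over all windows, was under 0.05.

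In 2610035D17Rik the largest loss fell in chr11:113195001-113200000, which lies inside an intron and begins 1838 bp into the gene. The normalized RPKM there was 10.38, 8.62 and 8.60 in WT replicates 1, 2 and 4, and 1.95, 2.42 and 2.72 in cKO replicates 1, 3 and 4. The lowest WT library stood well above the highest cKO library, and the WT mean was at the 99.99th percentile of all windows. The means were 9.20 ± 1.02 in WT and 2.36 ± 0.390 in cKO (SD, n = 3 each), a difference of -6.84. This was the most negative difference of all 544879 windows. The reads behind these values were 183, 89 and 277 in WT and 21, 26 and 71 in cKO, a log2 fold change of -2.38 in edgeR. Fold changes are given from reads alone, since the deposited value at 0 reads was not 0 and ranged from -1.02 to 0.810 between libraries.

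The window that contains the 2610035D17Rik start, chr11:113200001-113205000, lost less. It had 7.66, 6.68 and 6.23 in WT and 3.17, 4.00 and 4.85 in cKO, a difference of -2.85 with no overlap between the groups. The window after the largest loss, chr11:113190001-113195000, had 5.41, 7.07 and 4.56 in WT and 3.34, 3.47 and 3.69 in cKO, a difference of -2.18 that was not called. In WT the 3 windows formed a single peak with its summit inside the gene, and in the cKO the summit window was the lowest of the 3. The cKO libraries were all below the WT libraries in these 3 windows, a run of 15 kb from chr11:113190001 to 113205000. The mean over the run was 7.25 ± 0.702 in WT and 3.29 ± 0.467 in cKO.

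The loss ended abruptly on both sides. The flank just upstream, chr11:113205001-113210000, had a mean of 1.44 ± 0.196 in WT and 1.33 ± 0.485 in cKO, with overlapping groups. It contains the start of the lincRNA 4732490B19Rik, which lies on the same strand upstream of 2610035D17Rik. In the other 30 windows of the gene, the mean was 1.51 ± 0.285 in WT and 1.71 ± 0.229 in cKO. Of these, 22 had a higher mean in cKO, against 43.7% of all windows (56.3% were lower). In 4 of the 30 every cKO library was above every WT library, against 9.88% of all windows, and in 1 they were all below, against 9.95%. A second start of 2610035D17Rik at 113173077, used by 2 of its 4 transcripts, lies among these windows, and no window outside the run was called.

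**Figure D1:**
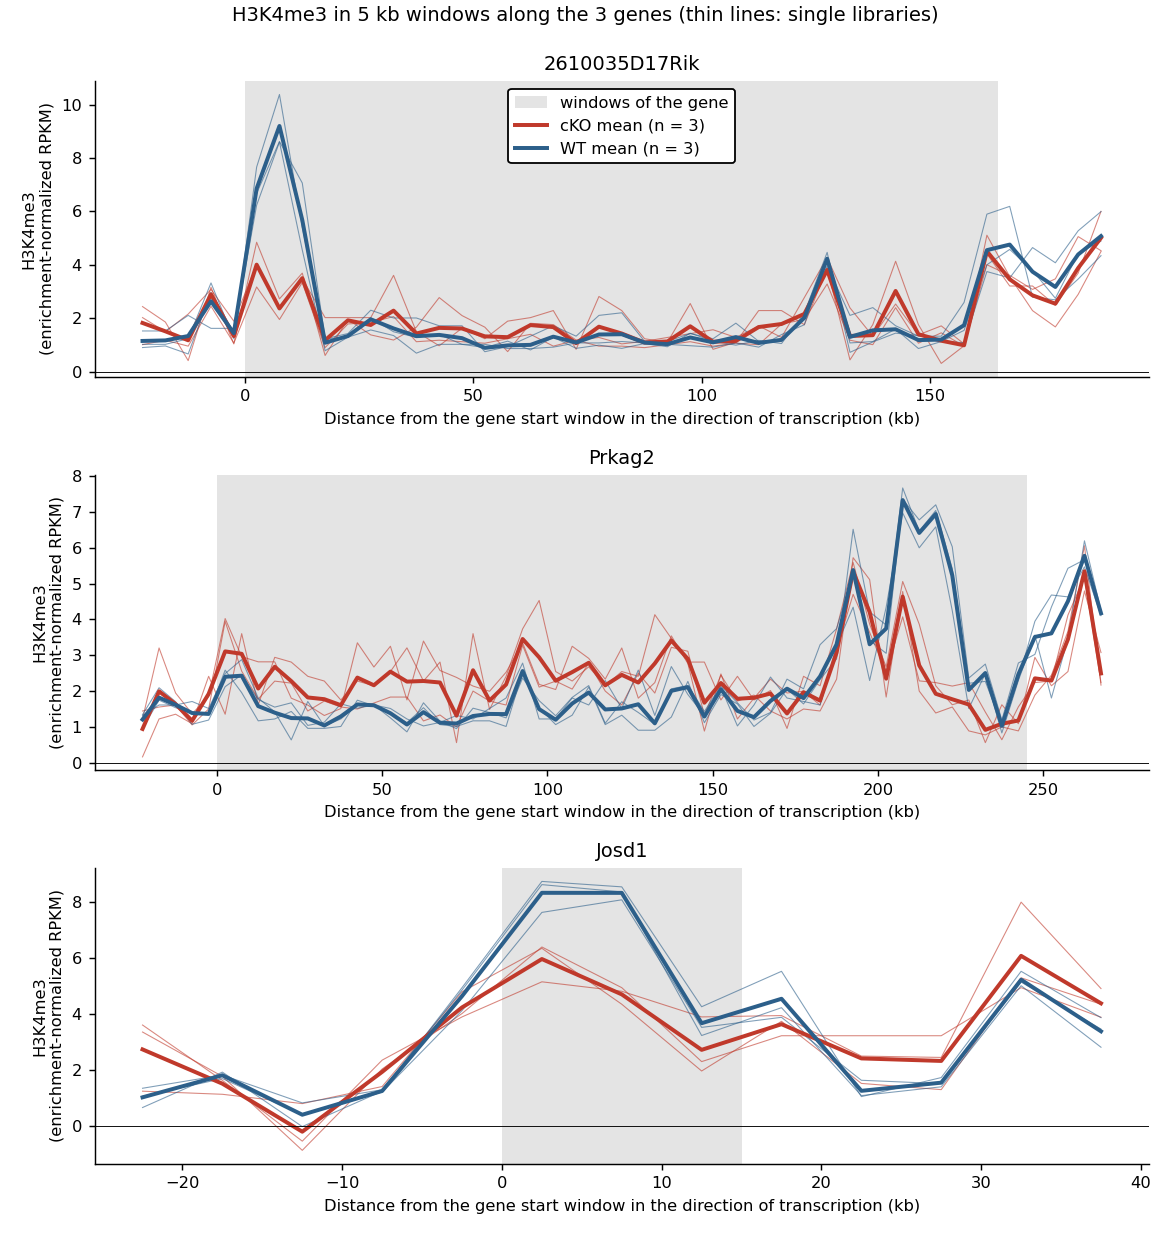
H3K4me3 (enrichment-normalized RPKM, linear scale) in each 5 kb window against the distance in kb from the window with the gene start, in the direction of transcription. Thin lines are single libraries, thick lines are means of 3 libraries, and grey marks the windows of the gene; the WT peak of 2610035D17Rik reaches 9.20 next to the start window, that of Prkag2 lies 200 to 225 kb into the gene, and that of Josd1 covers the start and the next window.

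In Prkag2 the largest loss was far from the long start, in chr5:24885001-24890000, 215 kb into the gene. WT replicates 1, 2 and 4 had 7.04, 6.58 and 7.19, and cKO replicates 1, 3 and 4 had 1.40, 2.15 and 2.24. The groups were far apart, and the WT values were close to each other. The means were 6.94 ± 0.319 in WT and 1.93 ± 0.465 in cKO, a difference of -5.01. Reads numbered 119, 68 and 230 in WT and 11, 24 and 61 in cKO, a log2 fold change of -2.26 in edgeR. The window contains exons of Prkag2 and the start, at 24889152, of a Prkag2 transcript annotated as a retained intron.

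This window was the deepest point of a run of 5 windows, 25 kb from chr5:24880001 to 24905000, in which the cKO libraries were all below the WT libraries. From the side nearest the short start to the far side, the differences were -1.40, -2.69, -3.69, -5.01 and -3.45. The first of them, chr5:24900001-24905000, was the only one of the 5 not called. It holds the start of a coding transcript at 24902315 and that of the antisense RNA Prkag2os1. The mean over the run was 5.93 ± 0.263 in WT and 2.68 ± 0.381 in cKO. The window with the most mark of the run in both groups was chr5:24895001-24900000. It had 7.66, 6.97 and 7.34 in WT, the highest WT mean of the gene, and 4.78, 5.06 and 4.07 in cKO.

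The short start itself showed no loss. Its window, chr5:24905001-24910000, had 4.21, 2.30 and 3.42 in WT and 5.11, 3.87 and 3.64 in cKO. The groups overlapped, and the means were 3.31 ± 0.960 in WT and 4.21 ± 0.791 in cKO, although this window has 182 CpG, more than any other of the 85. The next window upstream, chr5:24910001-24915000, had means of 5.38 in WT and 5.34 in cKO, also overlapping. The loss in the cKO began in the next window downstream.

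Further downstream, the cKO libraries were again all below the WT libraries in 2 more windows of Prkag2, which edgeR on the reads called as loss and limma did not. The first, chr5:24870001-24875000, had 2.28, 2.49 and 2.76 in WT and 0.79, 0.57 and 1.42 in cKO. It holds the start of the antisense RNA Prkag2os2, and in cKO replicate 1 it had 0 reads, at which the normalized value of that library is 0.785. The second, chr5:24860001-24865000, contains the 3′ end of the gene and had means of 2.47 ± 0.274 in WT and 1.19 ± 0.344 in cKO.

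Upstream of the short start the direction was the opposite. In the 39 windows from there to the long start, 35 had a higher mean in cKO than in WT (43.7% of all windows did). In 17 every cKO library was above every WT library and in 0 below, against 9.88% and 9.95% of all windows, and nothing is read from these shares in a gene picked on this contrast. The mean over these windows was 1.73 ± 0.100 in WT and 2.39 ± 0.267 in cKO. The libraries had 1.62, 1.78 and 1.80 in WT and 2.08, 2.59 and 2.48 in cKO, without overlap. None of these windows was called as gain by limma, 13 had an unadjusted p under 0.05 (14.9% of all windows did), and edgeR on the reads called 1. On other scales, 35 were higher in cKO after quantile normalization and 35 on log2(RPM + 0.5) of the reads, where the groups were apart in 15 windows with cKO above and in 1 with cKO below. The window that changed most, chr5:24970001-24975000, had 0.91, 1.33 and 1.08 in WT and 1.95, 4.13 and 2.24 in cKO, levels well under those of the WT peak. The antisense-strand lincRNA 1500035N22Rik starts in this stretch, in a window with 1.49 in WT and 2.17 in cKO.

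At the long start, chr5:25100001-25105000, which the transcript 2900005J15Rik on the other strand also uses, the values were 2.59, 2.49 and 2.13 in WT and 3.95, 1.36 and 4.03 in cKO. The cKO libraries lay on both sides of the WT libraries there. The window of the third start, chr5:24995001-25000000, had every cKO library above every WT library, with means of 1.66 ± 0.281 in WT and 2.53 ± 0.634 in cKO.

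**Figure D2:**
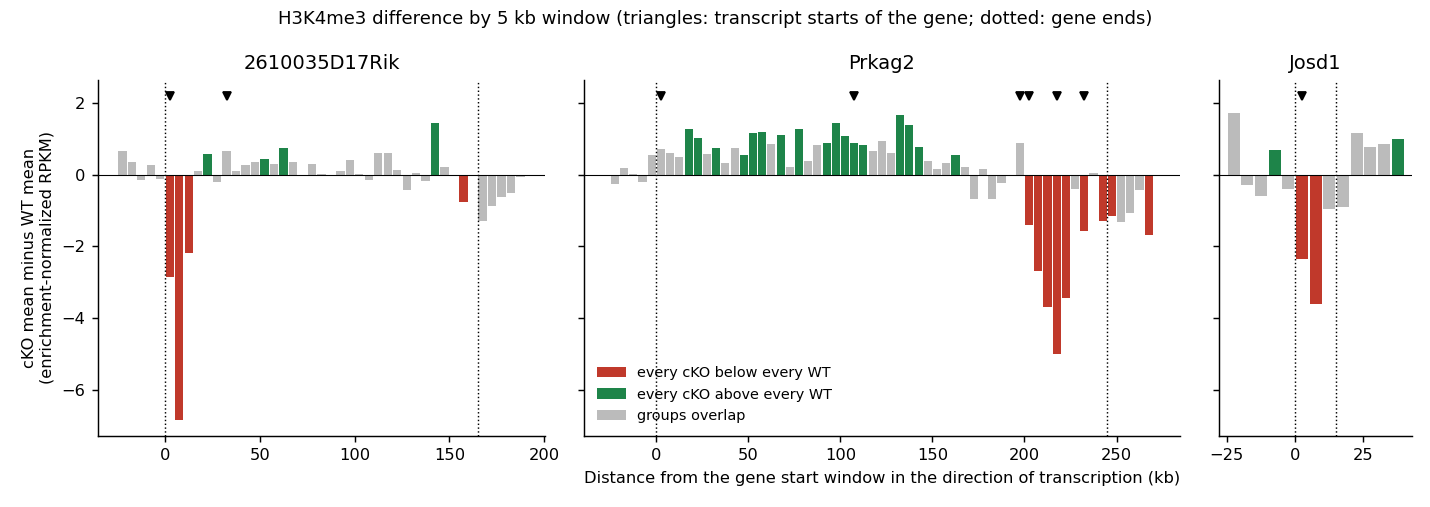
Difference between the cKO mean and the WT mean of H3K4me3 (enrichment-normalized RPKM) in each 5 kb window, by distance in kb from the window with the gene start. Red bars are windows with every cKO library below every WT library, green bars the reverse and grey bars overlapping groups; triangles mark transcript starts of the gene and dotted lines its ends, and in Prkag2 the red run of 5 windows follows a stretch in which 17 of 39 windows are green.

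Josd1, the shortest of the 3 genes, had its largest loss in chr15:79680001-79685000, the window after the start. WT replicates 1, 2 and 4 had 8.34, 8.53 and 8.06, and cKO replicates 1, 3 and 4 had 4.33, 4.93 and 4.80. The groups did not overlap, and each spanned less than 1 unit. The means were 8.31 ± 0.233 in WT and 4.69 ± 0.311 in cKO, a difference of -3.62. The reads were 144, 88 and 259 in WT and 64, 45 and 114 in cKO, a log2 fold change of -1.14 in edgeR. The window lies in an intron of Josd1 and contains Gm49520, annotated as a processed pseudogene.

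The start window of Josd1, chr15:79685001-79690000, has 175 CpG and had 8.61, 8.72 and 7.61 in WT and 6.33, 6.38 and 5.13 in cKO. The groups did not overlap here either, and the difference was -2.37. WT had almost the same level in both windows, 8.31 ± 0.608 at the start, while the cKO had more at the start, 5.95 ± 0.705, than in the next window. The third window assigned to Josd1, chr15:79675001-79680000, had means of 3.66 ± 0.530 in WT and 2.71 ± 1.03 in cKO, and its groups overlapped. Both windows of the loss lay at the 99.95th percentile of WT, and the cKO still had more of the mark in them than 97.9% (start) and 92.5% (next window) of all windows. At the largest-loss windows of 2610035D17Rik and Prkag2, the corresponding cKO percentiles were 69.8 and 61.4.

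The flanks of Josd1 contain other CpG-rich promoters, and their windows showed smaller differences. The window with the start of Gtpbp1, which encodes a GTP-binding protein, adjoins the Josd1 start window and also contains Gm26884 and n-R5s40. Its means were 4.62 ± 0.450 in WT and 4.22 ± 0.487 in cKO. On the other side, the window of Tomm22, a subunit of the mitochondrial import receptor, which also holds the 3′ end of Josd1, had 4.53 in WT and 3.62 in cKO, and the window shared by Cby1 and Fam227a had 5.21 in WT and 6.06 in cKO. In all of these the groups overlapped. A repeat-covered window inside Gtpbp1, chr15:79700001-79705000, had almost no input and gave values near the level of 0 reads.

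Beside Prkag2, the window with the start of Rheb, a small GTPase that activates mTORC1, had 5.77 in WT and 5.34 in cKO with overlapping groups. Of the 10 flanking windows of Prkag2, 2 had every cKO library below every WT library, 1 between the 3′ end of Prkag2 and Rheb and 1 inside Rheb. Of the 10 flanking windows of Josd1, 2 had every cKO library above every WT library, and the shares over all windows were 9.95% below and 9.88% above. No flanking window of any of the 3 genes was called by limma, 5 of the 30 had an unadjusted p under 0.05 (14.9% of all windows did), and edgeR called 1, as gain.

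Over the 3 genes, 8 of 85 windows were called as loss, 2 in 2610035D17Rik, 4 in Prkag2 and 2 in Josd1, and 0 as gain. Over the genome 0.454% of windows were called as loss and 0.563% as gain. The cKO libraries were all below the WT libraries in 13 of the 85 windows (4, 7 and 2) and above in 21 (4, 17 and 0), while 9.95% and 9.88% of all windows were. Since the genes were picked on this contrast, nothing is read from these shares. edgeR on the reads called 6 as loss, 1 in 2610035D17Rik, 5 in Prkag2 and 0 in Josd1, and 1 as gain. It called 1.22% of the windows it tested as loss and 1.07% as gain. The limma calls depended on single libraries: 5 of the 85 windows were called as loss without cKO replicate 3, 1 without WT replicate 1, and 0 when WT replicate 2 or replicate 4 of either group was left out. Leaving out any of the last 3 left no call in the genome, which holds for every limma call on H3K4me3 given here.

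Only 2 of the 3 genes stood at the very top of the losses. Ordered by the most negative window of each named gene, 2610035D17Rik was at position 1, Prkag2 at position 3 and Josd1 at position 40 of 24678. Counting called windows alone, the largest loss of Josd1 was at position 54 of 2473. Just ahead of it stood windows in Reps2 (-3.65) and Wnk1 (-3.64), and just behind it an intergenic window on the X chromosome (-3.62) and a window in Fam241b (-3.62). The 10 most negative windows also included windows in Setd1b itself (-5.59), Rbm14 (-4.97), Aen (-4.93), Mgmt (-4.88), Ldlrad4 (-4.77), Gm49224 (-4.75) and Tmem168 (-4.59), and 1 intergenic window on chromosome 14 (-4.93). Rbm14 encodes an RNA-binding coactivator, Aen a nuclease induced by p53, and Mgmt a DNA repair enzyme that removes alkyl groups from guanine.

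Input, which was not used to choose the genes, gave no call in the member windows. By limma on log2(RPM + 0.1) the adjusted p of the 85 windows lay between 0.704 and 1, 8 had an unadjusted p under 0.05, and edgeR called 0 with 4 at an unadjusted p under 0.05. Over the genome, limma called 0 windows (6.94% at an unadjusted p under 0.05) and edgeR 0.000792% (4.54% unadjusted). With 2 inputs per group, the precision was low. At the largest-loss window of 2610035D17Rik, the input RPM was 2.36 and 1.78 in WT and 2.45 and 1.63 in cKO. The Prkag2 window had 2.61 and 1.54 in WT and 3.28 and 2.30 in cKO, and the Josd1 window had 2.56 and 2.12 in WT and 2.50 and 1.63 in cKO. The groups overlapped at each of the 3 windows, and the values lay between 1.54 and 3.28, while the median of all windows ranged from 2.01 to 2.03 between inputs. At the start window of 2610035D17Rik the inputs did not overlap, with 2.71 and 2.39 in WT and 2.08 and 1.71 in cKO (log2 difference -0.41, adjusted p = 0.737 by limma), and the part of this in the H3K4me3 difference of that window was not tested.

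The ratio of H3K4me3 to input, both scaled to read depth, could be formed for replicates 1 and 4. At the 2610035D17Rik window it was 6.05 and 4.88 in WT and 0.69 and 1.53 in cKO. At the Prkag2 window it was 3.56 and 4.66 in WT and 0.27 and 0.94 in cKO. At the Josd1 window it was 4.39 and 3.82 in WT and 2.05 and 2.46 in cKO. In each of the 3 windows both cKO ratios were below both WT ratios, and only in Josd1 did both cKO libraries stay above 2 times the input.

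**Figure D3:**
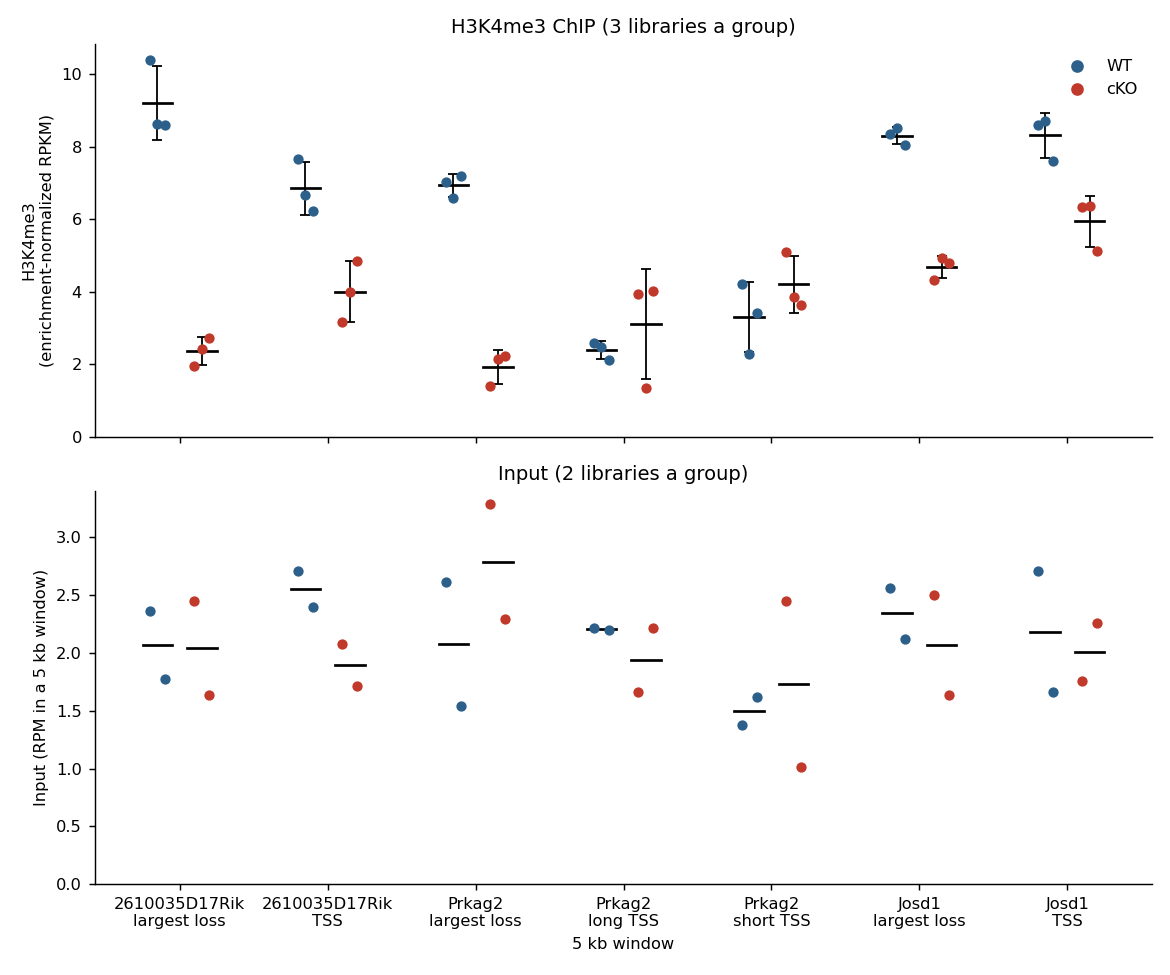
H3K4me3 (upper panel, enrichment-normalized RPKM) and input (lower panel, RPM in a 5 kb window) at the window with the largest loss and at the start windows of each gene. Points are libraries, horizontal bars are means and error bars are SD for 3 libraries; WT and cKO are apart in H3K4me3 at the largest-loss windows (9.20 against 2.36, 6.94 against 1.93 and 8.31 against 4.69) and overlap in input there, while at the 2610035D17Rik start both cKO inputs are below both WT inputs.

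The loss in the next window was set beside the loss in the start window for other genes too. In 149 gene entries of at least 10 kb the window with the start was called as loss. Their median difference was -2.57 in that window and -0.38 in the next window into the gene. The next window was the more negative one in 8 of the 149 entries (5.37%), against 49.7% of the 18587 entries of at least 10 kb. Some entries share a start window, so they are not independent of each other. Choosing genes for a loss in the start window by itself makes the next window the less negative one, so the low share is not read as a rarity. 2610035D17Rik and Josd1, which were chosen on the same H3K4me3 differences, were 2 of the 8, and Prkag2 was not among the 149, since its annotated gene start was not called. The other 6, named after their values were seen, were Setd1b, Nlrp2, Palld, Vmn2r110, Ddx60 and C1qtnf3. The window grid bears on this comparison, because the start lay 1838 bp from the next window in 2610035D17Rik, 2919 bp in Josd1 and 2808 bp in Setd1b. Among the 8 genes, 2610035D17Rik had the widest gap between the windows (-3.99), followed by Setd1b (-2.85) and Josd1 (-1.26).

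**Figure D4:**
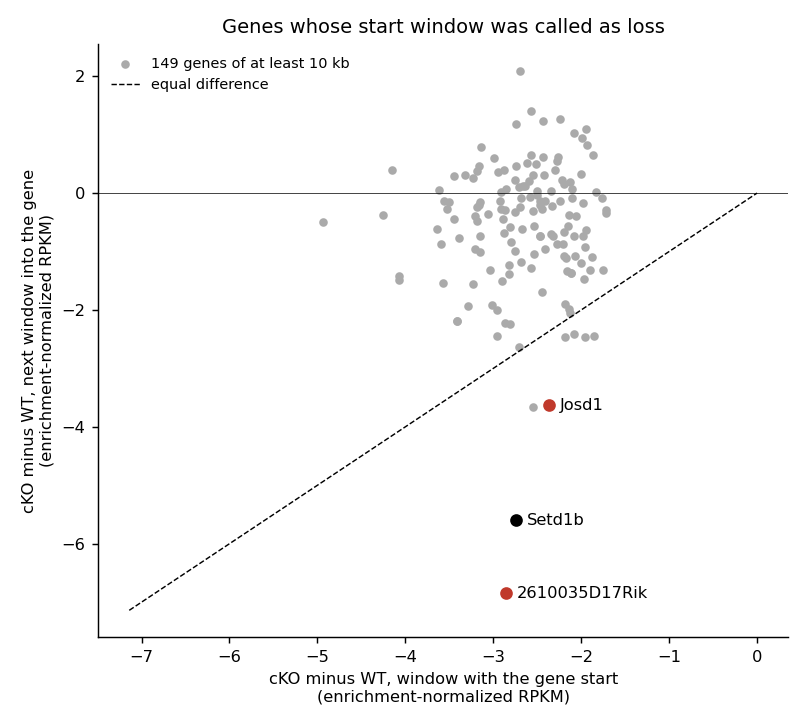
Difference between cKO and WT in H3K4me3 (enrichment-normalized RPKM) in the next window into the gene against that in the window with the gene start. Shown are the 149 gene entries of at least 10 kb whose start window was called as loss. Each point is an entry and the dashed line marks equal differences. 2610035D17Rik and Josd1 (red) and Setd1b (black) are among the 8 genes under the line.

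Setd1b, the deleted gene, stood close to 2610035D17Rik in its values. Its start window had 7.11 ± 0.861 in WT and 4.36 ± 0.385 in cKO, and the next window, chr5:123145001-123150000, had 8.34, 9.69 and 7.37 in WT and 2.17, 3.21 and 3.25 in cKO. H3K4me3 on the gene does not measure the deletion. The mean input RPM over the 6 windows of the gene ranged from 1.90 to 2.42 in cKO and from 1.22 to 2.47 in WT. Which window holds the deleted part was not determined, so the input does not check the deletion. By Euclidean distance over the 6 libraries, the called loss windows of other genes most like the 2610035D17Rik window were those of Setd1b (distance 2.79), D18Ertd653e (3.66) and Mgmt (3.87). The D18Ertd653e window is the same window that is given above under Ldlrad4, the GENCODE gene that overlaps it. The nearest to the Prkag2 window were in RP24-245M20.2, at the start of Rbm4 (1.47), Sall2 (1.75) and Gm20459 (1.77). Those nearest to the Josd1 window were in Arhgap26 (1.11), Dedd (1.11) and Ranbp9 (1.13).

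The starts of the other genes of the AMPK pathway were examined in the same way. Of 12 other AMPK subunits and upstream kinase genes, 0 had a start window called as loss and 1 was called as gain, against 0.638% and 0.896% of the 48576 windows that contain a gene start. With 12 genes, these counts cannot be told apart from the background. An unadjusted p under 0.05 was found for 4 of the 12 (19.7% of windows with a start). Their median difference was 0.081, and that of all windows with a start was -0.013. The gain was at Camkk2, a calcium-dependent kinase that activates AMPK. It had 3.79, 2.98 and 3.21 in WT and 5.83, 5.98 and 5.38 in cKO, and the difference was 2.40 (SE 0.368, adjusted p = 0.0265 by limma). edgeR did not call it, and limma did not without cKO replicate 3 or 4 or any of the WT replicates. At Strada, a pseudokinase that activates the AMPK kinase STK11, the start had 8.03, 7.26 and 6.41 in WT and 4.28, 4.53 and 6.34 in cKO. All cKO libraries were below all WT libraries there, and the difference of -2.19 did not pass the test (adjusted p = 0.112 by limma).

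Among the gamma subunits, Prkag1 had a start window with 4.72 in WT and 4.50 in cKO (adjusted p = 0.799 by limma), and Prkag3 had 3.53 in WT and 5.32 in cKO (adjusted p = 0.220 by limma). The catalytic subunit genes were Prkaa1, with 6.39 in WT and 5.61 in cKO, and Prkaa2, with 5.28 and 6.18. Neither passed the test (adjusted p = 0.447 and 0.491 by limma). Of the beta subunit genes, Prkab2 had every cKO library above every WT library, with 5.70 in WT and 6.96 in cKO (adjusted p = 0.285 by limma).

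The other Josephin family genes in the list, Josd2 and Atxn3, had lower WT levels at their starts than Josd1. Josd2 had 3.53, 3.56 and 2.34 in WT and 3.84, 4.53 and 3.69 in cKO, so that every cKO library was above every WT library. The difference was 0.87 (SE 0.436) and did not pass the test (adjusted p = 0.392 by limma). Atxn3 had 3.60 in WT and 3.79 in cKO, with overlapping libraries (adjusted p = 0.877 by limma). edgeR called 0 of the 14 start windows of both lists, and limma gave an unadjusted p under 0.05 for neither Josephin gene.

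Markers of the cells were read at their start windows. All 10 oocyte genes had a WT mean above the median of all windows, from 3.72 to 7.79. Summed over the 10, the level was between 58.3 and 63.2 in WT and between 52.7 and 53.6 in cKO, and 7 of 10 were lower in cKO, as were 50.7% of all windows with a start. Gdf9, whose promoter also drives the Cre transgene of the cKO, went against the sum, with 7.30, 7.94 and 7.13 in WT and 9.99, 12.58 and 9.52 in cKO, a difference of 3.24 (adjusted p = 0.0598 by limma). Of 8 granulosa cell genes, 8 were higher in cKO, as were 49.3% of all windows with a start, with a sum between 27.9 and 28.0 in WT and between 35.7 and 36.7 in cKO, and limma called Foxl2 as gain while edgeR did not. The WT means of the granulosa genes ran from 0.870 at Fshr (1.27 in cKO) to 5.90 at Inhba (6.71 in cKO). Of the 8, 2 were below the median of all windows in WT. Every cKO library was above every WT library in 5 of the 8 and below in 0, against 9.88% and 9.95% of all windows. Limma gave an unadjusted p under 0.05 for 2 of the 8 (19.7% of windows with a start). H3K4me3 at a start is no measure of expression, and the part of these marker differences in the values of the 3 genes was not tested.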

How the data were processed

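The authors trimmed and mapped the reads to GRCm38 (Trim Galore 0.4.2 and Bowtie2 2.2.9 in the submitters' processing notes) and counted them in windows of 5 kb. The deposited H3K4me3 values are a score (linear RPKM adjusted for the enrichment of each library). The deposited input values are a signal, the reads in the window scaled to library size (RPM). A further replicate of each genotype, which the methods exclude for poor enrichment, was not analysed here. The labels give WT as Cre negative, while the methods also allow heterozygous animals with Cre as controls.

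Whole reads were recovered from the value steps (100% of values within 0.01 reads of a whole number). Windows were compared with limma 3.58.1 (R 4.3.3), without trend or block, over all 544879 windows, with Benjamini-Hochberg adjustment, two-sided. edgeR 4.0.16 (quasi-likelihood) on the recovered reads, in windows with at least 10 reads, was an alternative, as were other scales and leaving out each library. The scripts were tested on simulated data. CpG counts came from the genome sequence and starts from the GENCODE annotation of GRCm38. PCR duplicates could not be told from independent fragments. p-values measure the spread between oocyte pools.

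The 3 genes and the lists (AMPK and Josephin genes, cell markers) were chosen with earlier results of these data known. Named genes were the members, genes with a start in their windows or flanks, Setd1b, those of the 10 largest decreases and of the windows ranked next to Josd1, the 3 genes with the nearest pattern for each member, and the lists.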

Additional observations from a re-analysis of the deposited data

How the results depend on the processing

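At the largest-loss windows the differences in 2610035D17Rik, Prkag2 and Josd1 stayed negative under every alternative run. Leaving out 1 library gave -7.14 to -6.25, -5.18 to -4.74 and -3.75 to -3.45. On other scales the sizes are not comparable: -2.02, -1.93 and -0.998 as log2(RPM + 0.5), and -1.60, -1.45 and -0.71 as log2(value + 1). The number of member windows called as loss, 8 of 85, was 0 on log2(value + 1), log2(value + 0.1) and after quantile normalization, and between 0 and 8 with 1 library left out. Over all windows, 5539 calls became 0 on both log scales, 1 after quantile normalization, 19492 with an intensity trend, 11514 with edgeR and 0 to 17979 with 1 library left out. The call in the AMPK and Josephin lists, 1, became 0 on both log scales, after quantile normalization and with edgeR, and 0 to 2 with 1 library left out. The cause of these changes was not tested. Of the 2 Josd1 windows with groups apart, 1 remained apart as log2(RPM + 0.5). The median difference of all windows was -0.10 as deposited, 0.00 after quantile normalization and 0.04 as log2(RPM + 0.5).

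The replicate numbers shared by the groups, 1 and 4, were not taken as pairs, since no label gives a shared animal or batch and only 2 numbers are shared. The deviations of same-numbered libraries correlated at 0.319, the highest of the 9 pairs across groups, and 0.0190. With the replicate block, 33433 windows, 10 member windows and 3 list windows were called. Input at the 3 windows had log2 differences of -0.03, 0.43 and -0.20, with ranges of -0.31 to 0.25 (0.17 without WT input 1), 0.071 to 0.79 and -0.49 to 0.094 when 1 input was left out, so the sign in 2610035D17Rik and Josd1 depended on a single input. With 2 inputs per group, a limma test of input in single windows has little precision, and differences in copy number or mappability of moderate size would not have been detectable.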
